A study of Mus musculus with 17 samples.

Results

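The 37 genes described here act in mitosis, the division of duplicated chromosomes between daughter cells. They form a named list of mitotic regulators, chosen for their function and matched by symbol to the deposited tables, in which all 37 were found among 55450 genes. Expression was measured by bulk RNA-seq in 14 libraries (7 groups of cultured cells with 2 libraries apiece) and by single-cell RNA-seq in 3 libraries. The cells came from FVB/NJ females of 10 to 12 weeks that carried MMTV-PyMT, a transgene in which the mouse mammary tumor virus promoter drives the polyoma middle T oncogene in mammary epithelium. All groups share this transgene, and no library comes from mice without it. The groups were the primary tumor of the mammary fat pad (MFP), which has no CD44 status in the labels, and cells from bone marrow (BM), lung and lymph node (LN), each sorted into CD44low and CD44high populations. Organs were dissociated, cultured for about 1 month to favor cancer cells, and sorted for high surface EpCAM, an epithelial adhesion protein, and by CD44, a hyaluronan receptor used as a marker of metastatic breast cancer. According to the methods, the 2 replicates of a group were distinct clonal isolates from different mice, so that each value is that of 1 selected isolate grown in vitro. Single cells were profiled for lung CD44high (lungH), lung CD44low (lungL) and LN CD44high (lymphH) cells.

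Entry into mitosis is driven by Cdk1 bound to its cyclins. The chromosomal passenger complex and the Aurora and Polo-like kinases then guide chromosome condensation, spindle assembly and attachment to kinetochores. The spindle checkpoint holds the anaphase-promoting complex inactive until attachment is complete, after which Cdc20 and Ube2c help it to destroy securin and the cyclins, and a central spindle of motors and bundling proteins sets the site of cytokinesis. Most of these transcripts peak in G2 and mitosis and are low in resting cells, so they are widely used as proliferation markers in breast tumors.

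Genes of this kind are known to share promoter elements, among them the cell cycle genes homology region (CHR), bound by the MuvB complex, and CCAAT boxes, bound by NF-Y. RefSeq windows of 300 bases (250 before and 50 from the transcript start, GRCm38.p6) were matched to 30 of the 37 genes. They were searched on both strands for a CHR, taken as TTTGAA or TTCGAA, and for CCAAT. A CHR was found in 23 of the 30 genes (76.7%), against 19.2% of 32851 windows of all genes, and CCAAT in 22 (73.3%), against 37.4%. At least 2 CCAAT boxes were found in 16 genes (53.3%, against 11.7% of all windows), and both motifs in 20 (66.7%, against 7.52%). The CHR and a CCAAT box share 1 base in Cdca8, and 2 CCAAT boxes overlap on opposite strands in Ube2c. Aurkb, Ccna2, Cdc25c, Foxm1, Incenp, Kif20a and Tpx2 had no window. Birc5, Mad2l1, Nuf2, Nusap1 and Pttg1 held neither motif, which says only that these letters are not in the window. Below are 170 bases, from 150 before to 20 from the start, of 4 genes that hold both motifs and of 2 that hold neither, in lower case with the CHR and CCAAT letters in capitals (TTCAAA and ATTGG where they read on the other strand). Cdk1 (chr10:69352893-69353062), Ccnb2 (chr9:70421535-70421704) and Cdc20 (chr4:118437324-118437493) lie on the minus strand and Ube2c (chr2:164769779-164769948) on the plus strand.
Cdk1: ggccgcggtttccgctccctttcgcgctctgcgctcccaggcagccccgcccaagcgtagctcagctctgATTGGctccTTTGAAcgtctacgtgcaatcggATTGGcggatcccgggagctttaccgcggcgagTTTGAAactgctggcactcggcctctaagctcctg
Ccnb2: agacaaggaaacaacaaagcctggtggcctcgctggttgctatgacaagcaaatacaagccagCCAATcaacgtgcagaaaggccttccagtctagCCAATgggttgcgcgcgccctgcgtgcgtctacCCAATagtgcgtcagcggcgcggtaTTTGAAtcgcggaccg
Cdc20: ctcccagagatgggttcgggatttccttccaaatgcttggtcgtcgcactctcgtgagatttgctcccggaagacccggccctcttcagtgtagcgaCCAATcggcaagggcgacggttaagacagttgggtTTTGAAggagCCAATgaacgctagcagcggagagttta
Ube2c: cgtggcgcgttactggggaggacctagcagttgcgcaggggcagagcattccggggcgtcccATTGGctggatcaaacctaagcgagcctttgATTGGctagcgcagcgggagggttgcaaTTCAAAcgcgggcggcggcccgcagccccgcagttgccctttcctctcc
In Ccnb2 the 3 CCAAT boxes began at positions -87, -54 and -21 and the CHR shown at position 5 of the transcript. Another CHR of the Ccnb2 window, at -167, lies outside the bases shown. In Cdk1 a CHR began at -71 and another at -15. Birc5 (chr11:117849087-117849256, plus strand) and Pttg1 (chr11:43425962-43426131, minus strand) held neither motif and are shown for contrast, since Birc5 had the largest difference of the 37 genes in lung against LN and BM and Pttg1 one of the smallest. The start used by the window lay within 100 bases of the 5 prime end of the gene in GENCODE for 27 of the 32 windows (Prc1 and Ect2 have 2 windows). It lay 270 bases inside the gene for Pttg1, 2394 for Cdca8, 3867 for Kif2c and 109 for Cenpa, and outside it for Mad2l1, so for these genes the window does not cover the bases next to the annotated 5 prime end in the same way.
Birc5: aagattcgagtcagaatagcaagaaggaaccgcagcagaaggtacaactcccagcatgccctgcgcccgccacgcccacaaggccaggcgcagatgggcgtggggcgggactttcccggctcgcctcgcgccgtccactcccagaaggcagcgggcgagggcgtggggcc
Pttg1: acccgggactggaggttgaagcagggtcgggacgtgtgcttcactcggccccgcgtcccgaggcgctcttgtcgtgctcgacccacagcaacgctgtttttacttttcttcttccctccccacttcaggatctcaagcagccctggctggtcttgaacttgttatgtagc

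Bulk values are TPM, a measure of transcript abundance that is per length and can be compared between genes but keeps no read depth. The methods state a minimum of 10 M reads per library, and 11508 to 13052 genes reached 1 TPM in a library. The lung libraries went against the EpCAM-high label. The TPM of 10 epithelial markers summed to 7201 and 8328 in MFP and to 2256 to 4840 in LN and BM, but to 2.43 and 2.61 in lung CD44low and 15.99 and 87.7 in lung CD44high cells, with Epcam listed at 0 in both lung CD44low libraries and at 0.23 and 0.86 in lung CD44high. The TPM of 10 fibroblast markers summed to 4813 and 5282 in lung CD44low, 223 and 106 in lung CD44high, and 0.52 to 46.2 elsewhere. Most of the lung sums was Dcn, at 4091 and 4315 TPM in lung CD44low and 166 and 78.9 in lung CD44high. Col1a1, Col1a2, Lum and Thy1 reached at most 0.08 TPM in lung CD44high, whereas each was at 29.1 or more in lung CD44low. Other fibroblast markers remained above MFP in lung CD44high, among them Postn at 21.01 and 16.9 and Pdgfra at 21.4 and 4.51 TPM. Fbn1 was at 7.53 and 3.14 and Pdgfrb at 5.92 and 2.09 TPM, beside at most 0.48 for these in MFP, and 5 of the 10 were called higher there. Fibroblast markers were also called higher than MFP in LN CD44low (1 of the 10), LN CD44high (2), BM CD44low (3) and BM CD44high (2). A rise over MFP was thus not particular to lung. Endothelial markers summed to at most 0.21 and 8 macrophage markers to 21.9 to 268, of which Adgre1 was listed at 0 in every library. The part of this shift in cell type in the lung results below was not tested.

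**Figure D1:**
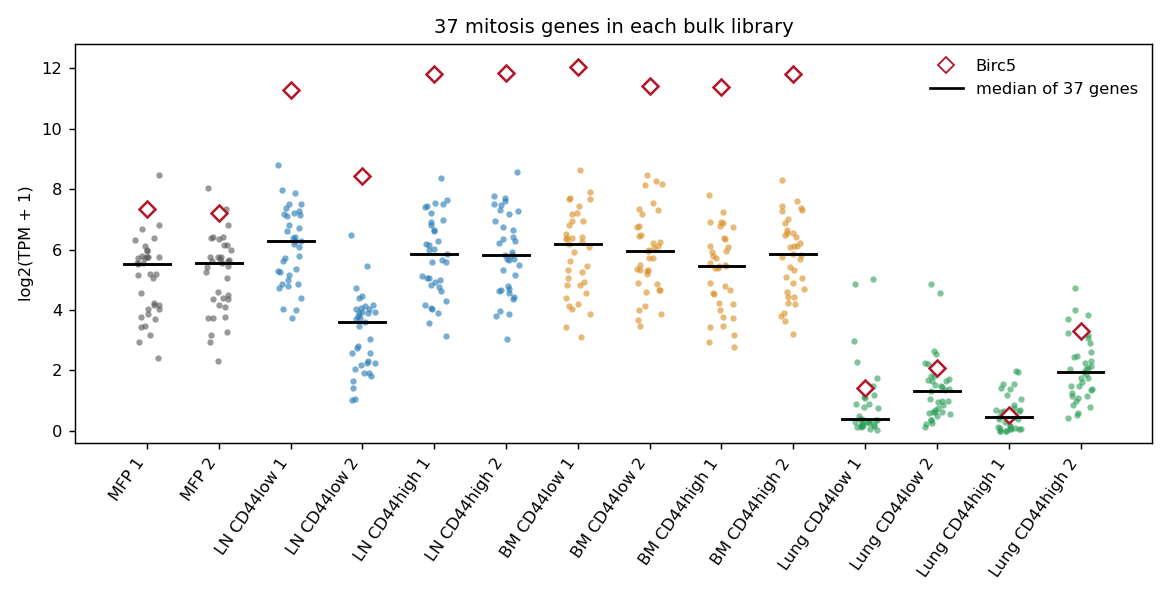
Levels of the 37 mitosis genes in the 14 bulk libraries, as log2(TPM + 1) on the vertical axis. Each small point is 1 gene, the diamond is Birc5 and the black bar is the median of the 37. The 4 lung libraries lie lowest, LN CD44low replicate 2 lies below the other LN and BM libraries, and Birc5 stands above the other genes in LN and BM but not in MFP or lung.

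Mitosis genes were low in lung-derived cells. Their summed level was 2019 and 1974 TPM in MFP, 5941 and 798 in LN CD44low, 6417 and 6743 in LN CD44high, 7339 and 5917 in BM CD44low and 4606 and 6255 in BM CD44high cells. In lung it was 92.5 and 105 TPM in CD44low and 23.7 and 167 in CD44high cells. Differences were tested with limma on log2(TPM + 1) over 15348 genes, and a gene was called where the log2 difference exceeded 2 in size and the adjusted p was under 0.05. Against the 8 LN and BM libraries, all 37 genes fell in the 4 lung libraries, against 5.54% of all genes tested that were called lower, with a median log2 difference of -4.17 beside 0.20 over all genes. All 37 lay below both MFP libraries in each lung library, as did 27.5% of all genes tested. In 34 of them each lung library also lay below each LN and BM library (12.6% of all genes), and in all 37 when LN CD44low replicate 2 was left out (13.9%). In bulk RNA, fewer dividing cells and less RNA of these genes per cell cannot be told apart.

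Each lung group was also compared with MFP, a comparison that shares its 2 control libraries with those of LN and BM. Against MFP, 35 genes fell in lung CD44low cells (7.62% of all genes were called lower), with a median of -3.93, and 36 in lung CD44high cells (8.03%), with a median of -3.84. The exceptions were Foxm1, at -1.81 (limma adjusted p = 0.0574) in CD44low and -1.55 (adjusted p = 0.114) in CD44high cells, and Pttg1, at -1.06 (adjusted p = 0.347) in CD44low cells. The count in CD44high cells rested on replicate 1, without which 21 genes were called, beside 7.44% of all genes in that fit. With 2 libraries against 2, an exact permutation test of 1 gene cannot go below p = 0.333, so calls here rest on the spread that limma pools over genes and groups.

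**Figure D2:**
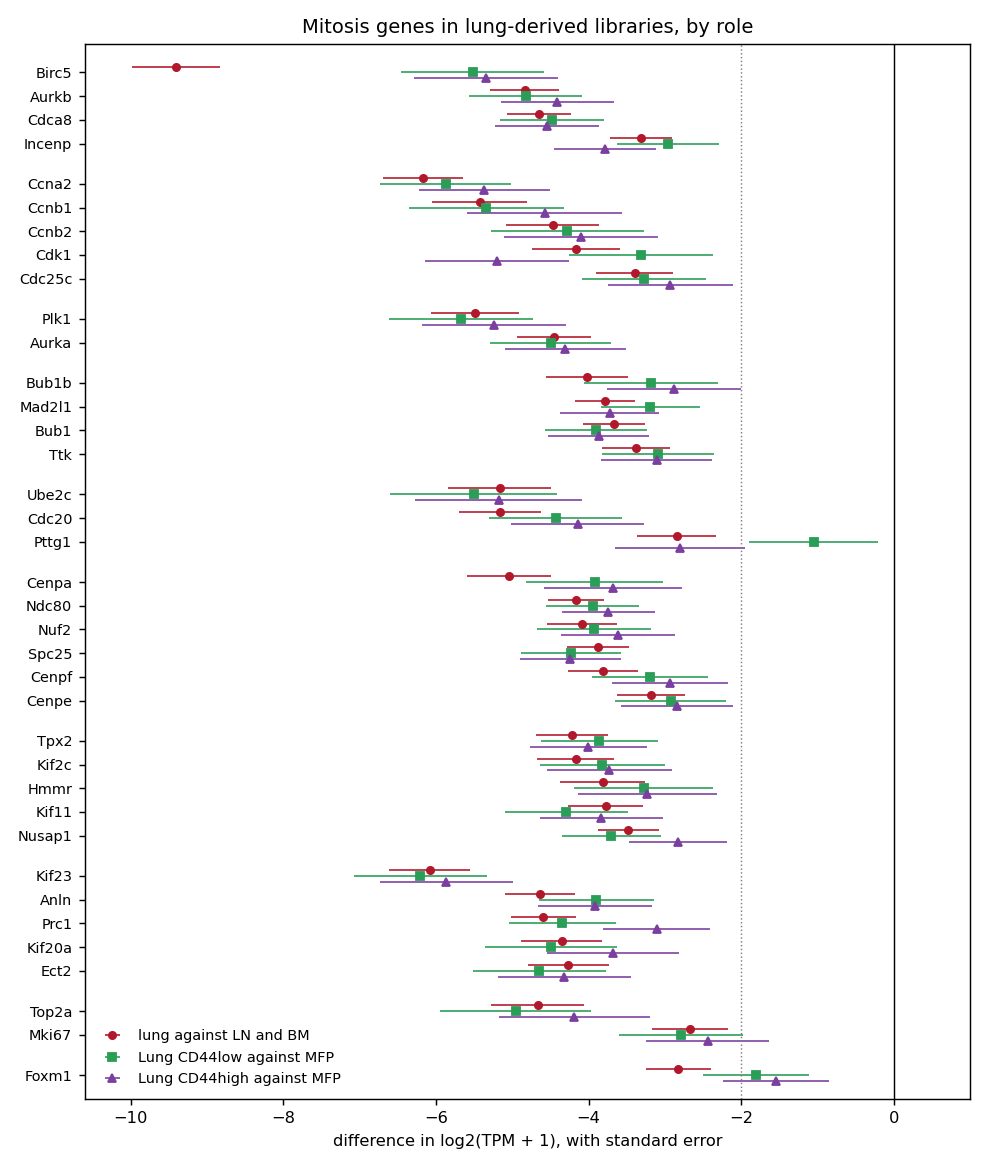
Difference in log2(TPM + 1) of each mitosis gene, with its standard error, for lung against LN and BM (circles), lung CD44low against MFP (squares) and lung CD44high against MFP (triangles), ordered by role from the chromosomal passenger complex at the top to Foxm1 at the bottom. The dotted line marks the limit of -2. All points lie left of 0, and Birc5 lies farthest left in lung against LN and BM, at -9.41.

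The chromosomal passenger complex corrects faulty kinetochore attachments and joins Aurkb, its kinase, to Incenp, the scaffold, Cdca8 (borealin) and Birc5 (survivin). Birc5, at chr11:117849251-117855743 on the plus strand (mm10), had 161 and 146 TPM in MFP, 2496 and 345 in LN CD44low, 3601 and 3645 in LN CD44high, 4172 and 2714 in BM CD44low and 2641 and 3561 in BM CD44high cells, and 1.67, 3.23, 0.45 and 8.88 in the lung libraries. No group of LN or BM overlapped MFP or lung. It fell by 9.41 on the log2 scale in lung against LN and BM (SE 0.57, limma adjusted p = 6.11e-07), the lowest of all 15348 values in this comparison. Against MFP it was at -5.52 in lung CD44low and -5.35 in lung CD44high cells, with Kif23 and Ccna2 lower still in both and Plk1 in CD44low cells. Aurkb ranged from 14.3 to 81.4 TPM in LN and BM with a median of 62.6, was at 53.3 and 41.8 in MFP, and reached 0.12, 1.58, 0.25 and 3.10 in lung (log2 difference -4.84, SE 0.45, adjusted p = 1.23e-05). Cdca8 fell by 4.65. Incenp was the least reduced member of the complex, at 6.77, 4.79, 2.96 and 2.65 TPM in lung beside 52.5 and 50.3 in MFP (log2 difference -3.31).

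Cdk1 is the kinase whose activity defines mitosis, Ccna2, Ccnb1 and Ccnb2 are its cyclins, and Cdc25c is a phosphatase that activates it. Cdk1 was at 356 and 264 TPM in MFP and at 87.5 to 440 in LN and BM. In lung it was at 31.9 and 27.9 TPM in CD44low cells, and at 1.64 and 25.3 in CD44high cells, so that 3 of the 4 lung libraries kept a level near 30 and 1 did not. It fell by 4.16 against LN and BM (SE 0.58, limma adjusted p = 0.000168). Ccna2 had 101 and 84.0 TPM in MFP, 25.4 to 231 in LN and BM and 0.27, 0.98, 0.32 and 2.84 in lung. Its log2 difference of -6.17 (SE 0.52, adjusted p = 6.17e-06) was exceeded among the 37 genes only by that of Birc5. Ccnb1 had 68.3 and 112 TPM in MFP, 15.5 to 205 in LN and BM and 0.53 to 7.97 in lung, a log2 difference of -5.43. Ccnb2 reached 81.4 to 144 TPM in BM and 3.94 to 53.7 in LN, without overlap, and 0.09 to 5.13 in lung, a log2 difference of -4.48. Cdc25c, at 1.70 to 37.8 TPM in LN and BM, was listed at 0 in lung CD44high replicate 1.

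Plk1, a kinase needed for spindle assembly and mitotic exit, was at 79.3 and 80.2 TPM in MFP, 12.4 to 144 in LN and BM and 0.19, 1.09, 0.12 and 3.10 in lung. It fell by 5.5 on the log2 scale (SE 0.58, limma adjusted p = 2.64e-05). Aurka, the centrosome kinase, was at 52.9 and 43.1 TPM in MFP, 10.1 to 76.6 in LN and BM and 0.36 to 3.44 in lung, a log2 difference of -4.46. The 4 spindle checkpoint genes had a median log2 difference of -3.73. Mad2l1, which binds and holds back Cdc20, had the highest levels among them, at 46.5 and 52.8 TPM in MFP, and kept 3.90, 5.22, 1.95 and 3.94 in lung. Bub1, Bub1b (BubR1) and Ttk, kinases and kinase-like proteins of the same checkpoint, were at 2.49 to 49.8 TPM in LN and BM and at 0.04 to 1.77 in lung, with log2 differences of -3.67, -4.03 and -3.38.

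Cdc20 activates the anaphase-promoting complex, Ube2c supplies it with ubiquitin, and Pttg1 (securin) is one of its targets. Cdc20 was at 54.5 and 69.8 TPM in MFP, 13.8 to 206 in LN and BM and 1.29 to 4.48 in lung, a log2 difference of -5.17 (SE 0.53, limma adjusted p = 2.37e-05). Ube2c fell by the same amount, from 20.3 to 285 TPM in LN and BM to 1.83, 3.60, 0.59 and 11.9 in lung. Pttg1 had 34.5 and 82.8 TPM in MFP, 97.9 and 15.6 in LN CD44low, 120 and 106 in LN CD44high, 148 and 309 in BM CD44low and 109 and 116 in BM CD44high cells. It kept 28.4 and 22.4 TPM in lung CD44low cells and 2.84 and 14.8 in lung CD44high cells. Its log2 difference of -2.85 (SE 0.52, adjusted p = 0.000984) was among the 3 smallest in size, with those of Foxm1 and Mki67.

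Of the centromere and kinetochore genes, Cenpa, the histone that marks centromeres, had the highest median in LN and BM, 192 TPM, and the largest difference of lung from LN and BM. It was at 51.9 and 69.4 TPM in MFP, 163 and 13.8 in LN CD44low, 200 and 192 in LN CD44high, 239 and 283 in BM CD44low and 150 and 192 in BM CD44high cells, and at 1.65 to 7.47 in lung (log2 difference -5.05, SE 0.55, limma adjusted p = 3.52e-05). Ndc80, Nuf2 and Spc25 belong to a single complex that grips microtubules, and had log2 differences of -4.17, -4.09 and -3.88. Their lung levels were 0.06 to 4.58 TPM, beside 17.7 to 61.4 in MFP. Cenpe, a kinetochore motor, and Cenpf, a large outer protein, had log2 differences of -3.18 and -3.81, and Cenpe was listed at 0 in lung CD44high replicate 1.

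The spindle motors and microtubule binders had log2 differences between -4.22 and -3.48, a narrow range beside that of the passenger complex. Kif11, which pushes spindle poles apart, was at 17.0 and 22.9 TPM in MFP, 2.75 to 35.0 in LN and BM and 0.01 to 0.72 in lung. Kif2c, a microtubule depolymerase, Tpx2, an activator of Aurka, Hmmr, a spindle and hyaluronan-binding protein, and Nusap1, which bundles spindle fibers, had log2 differences of -4.17, -4.22, -3.82 and -3.48. Nusap1 had a wider range in lung, with 0.31 and 0.54 TPM in CD44low and 0.62 and 3.20 in CD44high cells. It overlaps Oip5 on the opposite strand, and whether counting used strand is not given in the sources used here. The same holds for Ccna2 with Exosc9, Cdc20 with Elovl1, Ube2c with Tnnc2, Kif20a with Cdc23, and Prc1 with Rccd1. It also holds for Cdca8 with 9930104L06Rik and Cdc25c with Gm3550. Foxm1 overlaps the protein-coding genes Tex52 and Gm44596 on the same strand.

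Kif23, the motor of the centralspindlin complex, fell by 6.08 (SE 0.53, limma adjusted p = 7.71e-06). It was at 110 and 84.8 TPM in MFP and 17.1 to 180 in LN and BM, but at 0.23, 0.42 and 1.79 in lung and listed at 0 in lung CD44high replicate 1. Prc1, which bundles midzone microtubules, was at 62.8 and 48.5 TPM in MFP and 43.1 to 185 in LN and BM, with 1.18 and 2.51 in lung CD44low and 1.94 and 13.4 in lung CD44high cells, a log2 difference of -4.6. Anln (anillin), Kif20a, which relocates the passenger complex, and Ect2, the exchange factor for RhoA, had log2 differences of -4.64, -4.36 and -4.27. Top2a, which untangles DNA, was at 82.2 and 61.9 TPM in MFP, 14.3 to 156 in LN and BM and 0.68 to 8.37 in lung, a log2 difference of -4.67. Mki67 (Ki-67), which coats mitotic chromosomes, had only 8.01 and 6.69 TPM in MFP, 1.07 to 28.1 in LN and BM and 0.05 to 1.24 in lung, and had the smallest difference of the 37 in size, -2.68 (SE 0.49, adjusted p = 0.00107). Foxm1, a transcription factor that acts on G2 and mitosis promoters, was at 4.29 and 3.93 TPM in MFP, 2.15 to 24.5 in LN and BM and 0.32 to 1.21 in lung, a log2 difference of -2.83. On the log2(TPM + 1) scale the change of such low genes is understated.

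By role the median differences ran from -3.67 (Top2a and Mki67) to -5.17 (Cdc20, Ube2c and Pttg1), beside -2.83 for Foxm1 alone. The 20 genes with both a CHR and CCAAT in the window had a median of -4.36 (range -6.08 to -2.68), the 10 with a window but not both motifs -4.13 (range -9.41 to -2.85) and the 7 without a window -4.22. Within lung, CD44high replicate 1 was the lowest library for 26 genes and CD44high replicate 2 the highest for 32. The 2 lung CD44high isolates thus lay at opposite ends of the lung range for most of the list. How often this held over all genes tested was not counted, so it cannot be read as particular to the list.

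Related lists that hold none of the 37 genes were compared in the same way, against 5.54% of all genes called lower, 7.13% called higher and a median of 0.20. Of 66 other mitotic genes, 53 fell in lung against LN and BM and 1 rose, with a median of -3.15. The largest falls were in Pbk, a mitotic kinase (-4.96), Spc24, the fourth subunit of the Ndc80 complex (-4.91), and Kif22, a chromosome motor (-4.84). Numa1, a spindle pole protein, rose by 2.42 (SE 0.44, limma adjusted p = 0.00102), with 94.4 to 216 TPM in lung and 13.7 to 122 in LN and BM, where BM CD44low replicate 2 was the one library that overlapped lung. Of 26 S phase genes, which act in DNA replication, 22 fell, with a median of -2.95, led by the helicase subunits Mcm6 (-5.48) and Mcm5 (-5.26) and by Tk1 (-4.93), a thymidine kinase. A list of 15 genes held subunits of the anaphase-promoting complex and Ube2s, an enzyme that works with it. None of the 15 passed the fold limit, and their median of 0.22 was close to that of all genes. An adjusted p under 0.05 was reached by 10 of them, as it was by 9189 of all 15348 genes. Of 21 MuvB, E2F and pocket protein regulators, 4 fell: E2f8 (-3.04), E2f7 (-2.76), Mybl2 (-2.29) and Lin9 (-2.07). Rbl2, the pocket protein p130 known from resting cells, was at 1.86 (adjusted p = 4.99e-05), short of the fold limit.

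CDK inhibitors restrain the cyclin-dependent kinases. Cdkn1a (p21), a target of p53, was at 325 and 226 TPM in MFP, 142 to 426 in LN and BM and 345 and 351 in lung CD44low cells, but at 14.1 and 24.9 in lung CD44high cells. It fell by 4.14 on the log2 scale in lung CD44high against CD44low cells (SE 0.45, limma adjusted p = 7.61e-05), while mitosis genes were low in both. Cdkn2b (p15) was at 66.2 and 51.9 TPM in MFP, at most 0.16 in LN and BM, 113 and 71.6 in lung CD44low and 0.49 and 0.26 in lung CD44high cells. It rose by 3.43 in lung against LN and BM (adjusted p = 1.43e-07), through the CD44low libraries. Cdkn1c (p57) was at 7.78 and 7.11 TPM in lung CD44low cells and at most 0.27 elsewhere. Cdkn2a had 4.57 and 4.43 TPM in lung CD44low cells and 0.65 and 0.28 in lung CD44high cells. Cdkn2c (p18) was at 2.21 and 3.59 TPM in MFP, 9.57 to 50.6 in LN and BM and 51.1 to 64.5 in lung. The remaining members, Cdkn1b (log2 difference 0.88), Cdkn2d (-0.79) and Trp53 (-1.16), had adjusted p-values under 0.05 and did not reach the fold limit.

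CD44 status made no called difference for the mitosis genes in any organ. In LN, all 37 were higher in CD44high than CD44low cells, with a median of 1.13 beside -0.13 over all genes, but none was called by limma (0.208% of all genes were) and none had an unadjusted p under 0.05. The 2 LN CD44low libraries lay on either side of the CD44high ones for most genes, and both CD44high libraries were above both CD44low libraries in 4 of the 37, beside 10.2% of all genes, a like share. In BM, 34 of 37 were lower in CD44high cells, with a median of -0.35, but so were 10725 of 15348 genes tested, with a median of -0.20. In 12 of the 37 both CD44high libraries lay below both CD44low libraries, beside 26.2% of all genes, with 0 called (0.104% of all genes) and 0 at an unadjusted p under 0.05. BM CD44low replicate 2 stood apart from replicate 1 over other genes. With replicate 2 alone for this group, 6.01% of all genes were called lower and 0.339% higher in CD44high cells, and 0 of the 37. In lung, 28 of 37 were higher in CD44high cells, with a median of 0.26 beside -0.01 over all genes, and 0 were called, against 11.3% of all genes, again with 0 at an unadjusted p under 0.05. The interaction of CD44 status with lung gave 0 calls among the 37 and 9.59% among all genes, with a median of -0.26 beside 0.12 over all genes and 0 of the 37 at an unadjusted p under 0.05. Single lung CD44high isolates moved these counts: Prc1 was called higher in CD44high cells (2.38, limma adjusted p = 0.0283) without replicate 1, and Cdk1 lower (-3.55, adjusted p = 0.0098) without replicate 2.

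LN CD44low replicate 2 stood apart from the other LN and BM libraries. Each of the 37 genes was lower there than in replicate 1, with ratios of 0.0677 (Hmmr) to 0.307 (Prc1) and a median of 0.110. It was the lowest of the 8 LN and BM libraries for all 37 (17.0% of all genes tested) and below both MFP libraries for 36 (56.7%), Birc5 being the exception with 345 TPM. All 26 S phase genes were lower as well, with a median ratio of 0.308, whereas over 12880 expressed genes the median ratio of TPM + 1 was 0.787 and 68.4% were lower (62.4% of the genes tested). Cdkn1a had the highest level of the 14 libraries there, 426 TPM. Its epithelial markers, at 3404 TPM, were within the LN and BM range. The library decided the LN CD44low comparisons: without it, Birc5 was called higher against MFP (4.02, limma adjusted p = 0.0217). With replicate 1 left out instead, so that this library alone stood for LN CD44low, 13 mitosis genes were called lower against MFP, beside 3.48% of all genes, and 11 were called higher in LN CD44high against CD44low cells, beside 0.358%.

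Against MFP, Birc5 was the sole mitosis gene called in LN and BM. With limma it was called in LN CD44high (4.56, SE 0.94, adjusted p = 0.00677), BM CD44low (4.45, SE 0.94, adjusted p = 0.00764) and BM CD44high cells (4.32, SE 0.94, adjusted p = 0.00797), and was at 2.59 (adjusted p = 0.104) in LN CD44low cells. These comparisons share the 2 MFP libraries. Without MFP replicate 2, or for BM CD44high without its replicate 2, the adjusted p in BM was between 0.0501 and 0.0510. Of the 37 genes, 0, 1, 1 and 1 were called in LN CD44low, LN CD44high, BM CD44low and BM CD44high cells, against 4.79%, 6.12%, 7.16% and 7.67% of all genes, with 1, 1, 4 and 1 at an unadjusted p under 0.05. The medians were -0.52, 0.67, 0.64 and 0.35, beside -0.18, -0.30, -0.04 and -0.34 over all genes. Scaling libraries by median ratios moved the medians of the 37 to -0.23, 1.19, 0.92 and 0.88, with the same numbers of calls. The next largest values were of Cenpa in BM CD44low cells, 2.10 (adjusted p = 0.129), Pttg1, 1.98 (adjusted p = 0.127), and Foxm1, 1.70 (adjusted p = 0.112).

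Birc5 made up 7.97% and 7.37% of the summed TPM of the 37 genes in MFP, 42.0% to 57.3% in the LN and BM libraries, LN CD44low replicate 2 included, and 1.81% to 5.32% in lung. Mean TPM in LN and BM over mean TPM in MFP was 18.9 for Birc5, with a median of 1.401 over the 37 genes and Cenpa next at 2.95. Without Birc5 the other 36 genes summed to 1858 and 1828 TPM in MFP and to 1965 to 3444 in LN and BM apart from LN CD44low replicate 2, at 453. The ratios of its partners Aurkb, Incenp and Cdca8 were 1.27, 1.07 and 1.25.

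The genes around Birc5 were examined because of this difference, after its values were seen, so the values are a description and no test was made of the region. Of the 58 other tested genes within 1500 kb on chromosome 11, 41 were higher in LN and BM than in MFP on average, against 38.4% of all genes tested. The median of their mean log2 difference was 0.79, beside -0.21 over all genes and -0.91 to 0.03 over like windows around the other 36 mitosis genes. In LN CD44low, LN CD44high, BM CD44low and BM CD44high cells, 15, 12, 17 and 17 of the 58 were called higher than in MFP, beside 2.07%, 2.44%, 3.99% and 3.64% of all genes. Called lower were 4, 6, 5 and 5 of the 58, beside 2.72%, 3.68%, 3.17% and 4.03% of all genes. Close to Birc5, Afmid had 2.95 and 1.71 TPM in MFP and 10.7 to 36.7 in LN and BM, and Syngr2, a vesicle protein, 219 and 164 TPM in MFP and 402 to 1149 in LN and BM. Farther right, Pgs1 had 19.6 and 14.9 TPM in MFP and 78.7 to 193 in LN and BM, Usp36 had 7.37 and 4.65 and then 34.9 to 107, and Lgals3bp, 553 kb away, 1.23 and 0.19 and then 32.9 to 312. No LN or BM library overlapped MFP in these genes. The run was not unbroken, and some genes to the left went the other way, such as Mfsd11, at -996.8 kb, with 216 and 248 TPM in MFP and 15.7 to 35.3 in LN and BM.

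**Figure D3:**
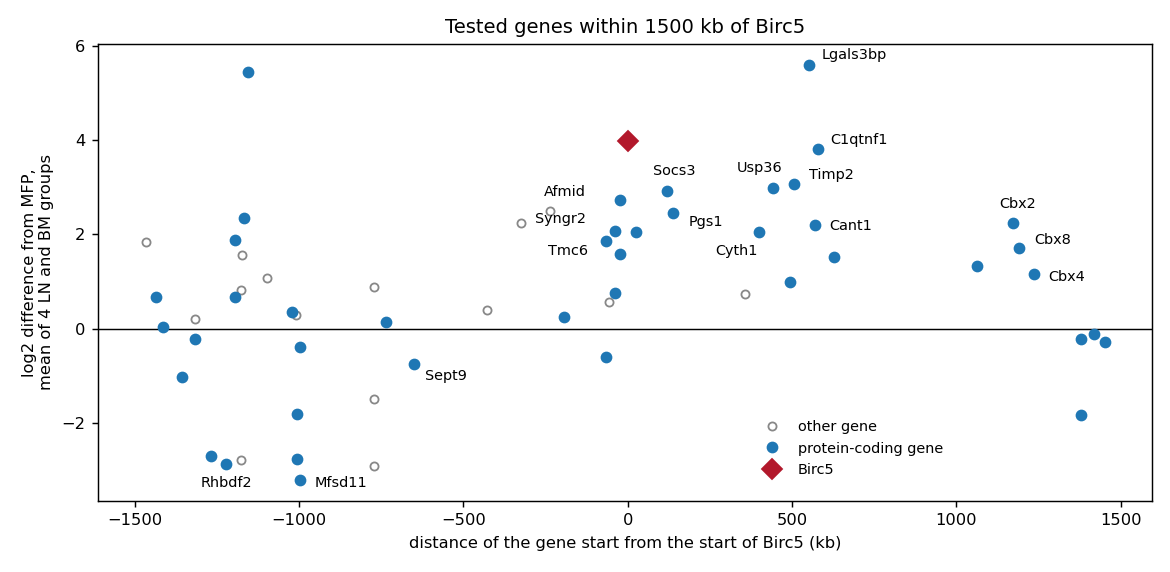
Mean log2 difference of the 4 LN and BM groups from MFP (vertical axis) against distance in kb from the start of Birc5 (horizontal axis) for the 58 other tested genes within 1500 kb. Filled points are protein-coding genes, open points other genes and the diamond is Birc5, at 3.98. Genes from Tmc6 on the left to C1qtnf1, 579 kb to the right, lie mostly above 0, and those farther to the left lie on both sides of it.

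The median difference of the 58 genes from the MFP mean was 0.62 in LN CD44low replicate 2, 1.5 in BM CD44low replicate 2 and 0.56 to 0.92 in the other LN and BM libraries, with -0.15 to 0.00 in the 4 lung libraries. Among 1123 bins of 1 Mb with at least 5 tested genes, the bin that holds Birc5 had the fifth highest median, 1.24 over 20 genes. These genes include Birc5, whose own value prompted the look, and the rank without it was not computed. The next bin along the chromosome, which does not hold Birc5, had the second highest median, 2.14 over 10 genes. In lung against LN and BM, 15 of the 58 were called lower, beside 5.54% of all genes, and 2 higher, beside 7.13%, with a median of -1.01 beside 0.20 over all genes. Tk1, whose level also follows the cell cycle, lies at -23.2 kb from the start of Birc5 and is counted among the 58.

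Single cells were counted from 3 prime ends on the ddSeq platform, with 1 deposited matrix per group. The methods speak of 2 replicates for each. The labels mark the lungH and lungL matrices as replicate 1 and give the lymphH matrix no replicate number. Each matrix is therefore 1 sample, and no test was made. Barcodes were kept where over 250 genes were detected and mitochondrial counts stayed under 10%, which left 1236 of 3623 barcodes in lungH, 348 of 2808 in lungL and 2562 of 3297 in lymphH. They held 2210623, 2220759 and 5287425 counts, with medians of 557, 4011 and 585 per cell. Doublets were not removed, and barcodes are running numbers, so barcodes shared between libraries could not be counted. The 10 epithelial markers were at 4.37 per 10000 counts in lungH, 1.62 in lungL and 10.7 in lymphH, a smaller gap than in bulk. Epcam itself had 3 counts in lungH, 0 in lungL (exact Poisson 95% upper limit 0.0166 per 10000) and 936 in lymphH. Fibroblast markers were at 0.968, 22.7 and 0.132 per 10000 counts in lungH, lungL and lymphH. Intervals below are exact Poisson 95% intervals and cover counting error only.

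In single cells, mitosis genes were not low in lungH. The 37 genes summed to 37.5 per 10000 counts in lungH (95% interval 36.7 to 38.4), 11.98 in lungL (11.5 to 12.5) and 30.4 in lymphH (29.9 to 30.9). Without Birc5, a choice made after its values were seen, the sums were 35.9, 11.4 and 21.6. Cells of at least 4000 counts held 69.3%, 90.8% and 73.4% of the kept counts in lungH, lungL and lymphH, so deep cells weigh most in these sums. As a mean over cells, lungH and lymphH lay close together. Between lungH and lymphH the intervals stood apart upward for 25 genes and downward for 2, Birc5 and Cdca8, and overlapped for 10, with a median ratio of 1.66. Of the 8815 genes with at least 112 counts over the 3 libraries, the fewest of any of the 37, 28.5% stood apart upward and 25.1% downward, with a median ratio of 1.02. LungL was below lymphH for 25 genes and overlapped for 12, with a median ratio of 0.499, beside 27.1% of the 8815 genes below, 27.9% above and a median of 0.989. It was below lungH for 36, Ttk being the exception, with a median ratio of 0.325, beside 23.6% below, 22.0% above and a median of 0.967. S phase genes had the same order, at 43.7, 20.5 and 29.3 per 10000 in lungH, lungL and lymphH.

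The highest ratios of lungH to lymphH were those of Ccnb2 (9.45, from 0.751 and 0.0794 per 10000), Pttg1 (4.86) and Nusap1 (3.05). Cdk1 was at 2.62, 0.946 and 1.28 per 10000 in lungH, lungL and lymphH, Top2a at 3.17, 1.38 and 1.52, Mki67 at 1.84, 0.266 and 0.870, and Foxm1 at 1.02, 0.387 and 0.620. Birc5 went the other way, at 1.68 (1.51 to 1.86) in lungH, 0.635 (0.534 to 0.749) in lungL and 8.78 (8.53 to 9.04) in lymphH, which is 4642 counts. Its passenger complex partners Aurkb (0.837, 0.252 and 0.526) and Incenp (0.973, 0.459 and 0.590) were highest in lungH, whereas Cdca8 (0.357, 0.203 and 0.524) was highest in lymphH, as Birc5 was. Counts from 3 prime ends compare a gene between libraries and not genes with each other.

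The bulk and single-cell assays therefore differed on the lung CD44high cells. Against LN CD44high cells, the summed TPM of the 37 genes had a ratio of 0.0145 in bulk for lung CD44high and 0.0150 for lung CD44low, and the summed counts per 10000 had ratios of 1.24 and 0.394. The bulk ratio of lung CD44high was 0.0036 for replicate 1 alone and 0.0254 for replicate 2 alone. Without Birc5 the ratios were 0.0307 and 0.0326 in bulk and 1.66 and 0.525 in single cells. Single genes ranged from 0.00129 to 0.0857 in bulk and from 0.191 to 9.45 in single cells for lung CD44high. In lung CD44low the ranges were 0.000676 to 0.225 and 0.0723 to 1.53. The S phase genes had ratios of 0.132 in bulk and 1.49 in single cells for CD44high. Birc5 had the lowest ratio of the 37 in both assays and both lung groups. TPM and counts were normalized separately, and the labels do not say whether the same isolates or passages were used. The cause of the difference was not tested.

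**Figure D4:**
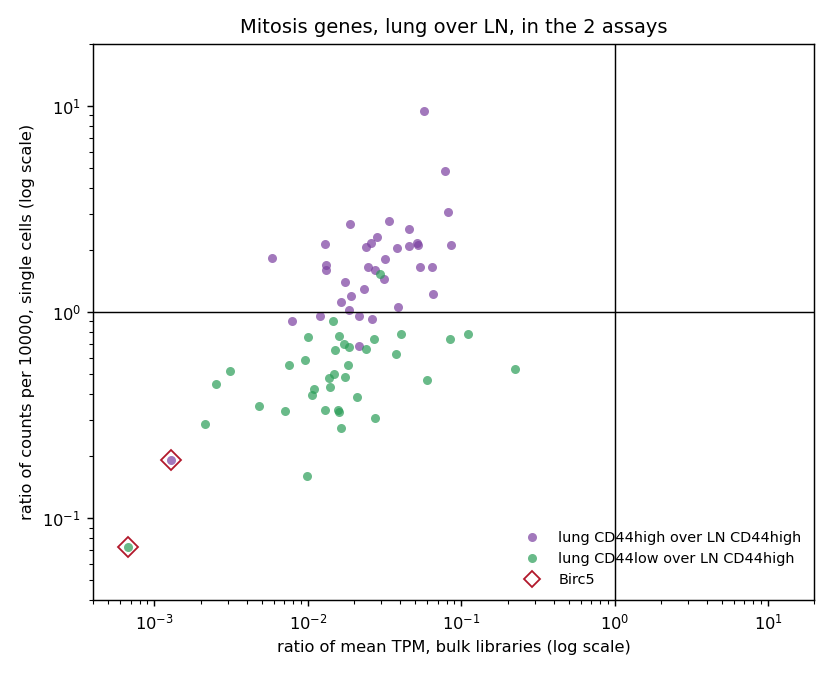
Ratio of lung over LN CD44high cells for each of the 37 genes, from mean TPM in bulk (horizontal log axis) and from counts per 10000 in single cells (vertical log axis), for lung CD44high (purple) and lung CD44low (green). Lines mark a ratio of 1. All points lie left of the vertical line, most purple points lie above the horizontal line and most green points below it, and the diamonds of Birc5 lie at the lower left.

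Cells were ranked by their counts of the 37 genes. The top 124 of 1236 cells in lungH, 35 of 348 in lungL and 257 of 2562 in lymphH were taken. They carried 80.9%, 73.2% and 79.9% of the counts of the 37 genes, and 45.7%, 19.3% and 56.0% of all counts. The ranking used the same counts and cells differed in depth, so these shares cannot show that few cells expressed the genes. To compare cells at equal depth, cells of at least 4000 counts were thinned to 4000, which left 164, 174 and 234 cells and set aside 1072, 174 and 2328 shallower ones. A median of 3, 1 and 4 of the 37 genes was then detected per cell, with up to 24, 22 and 22. At least 8 were detected in 39.6% of lungH cells (exact binomial 95% interval 32.1 to 47.6), 14.4% of lungL cells (9.52 to 20.5) and 37.6% of lymphH cells (31.4 to 44.2). These intervals cover the sampling of cells within 1 library and no spread between isolates. Unthinned shares were 44.5%, 25.3% and 53.9%. At most 2 were detected in 47.0%, 68.4% and 45.7%. The limit of 8 divides a continuous range, with 14, 16 and 39 cells at 6 to 9 genes.

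**Figure D5:**
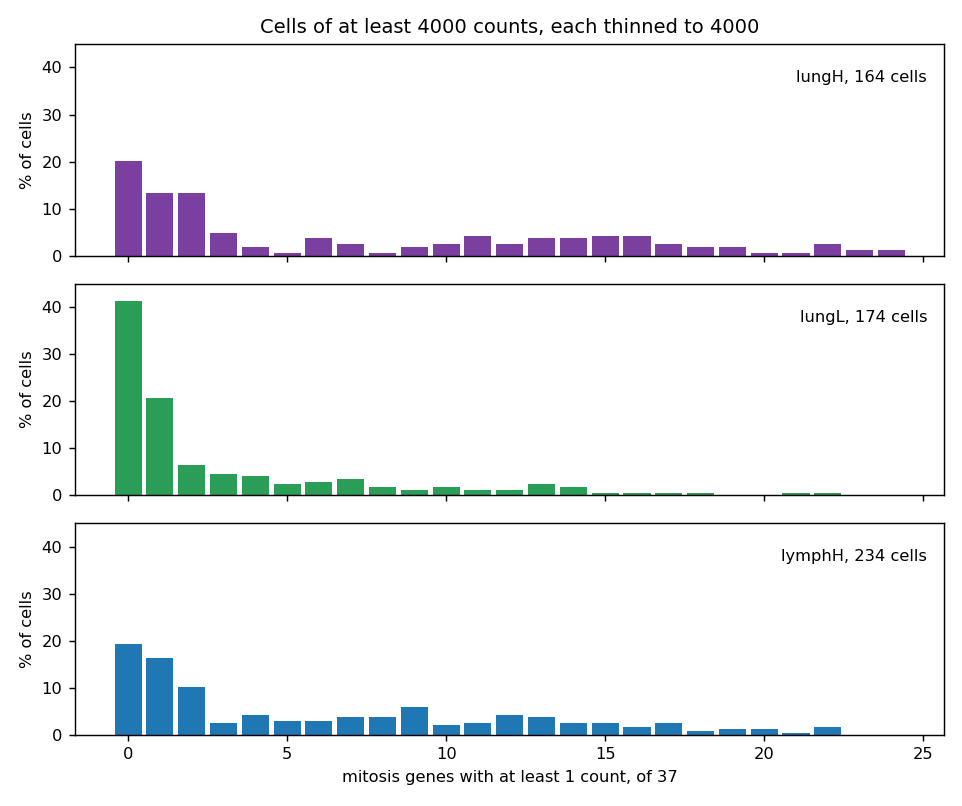
Percent of cells (vertical axis) by the number of the 37 mitosis genes with at least 1 count (horizontal axis) in lungH, lungL and lymphH, for cells of at least 4000 counts thinned to 4000. The bars are highest at 0 to 2 genes in each library. LungH and lymphH have a broad second group that reaches 24 and 22 genes, which is smaller in lungL.

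In each library Birc5 was higher in cells with more of the other 36 genes, and lymphH had the highest level in each class. In thinned cells with 0 to 2 of the other genes, Birc5 was at 0.130 per 10000 (0.0354 to 0.333) in lungH, 0.125 (0.0459 to 0.272) in lungL and 0.670 (0.452 to 0.956) in lymphH. With 3 to 7 it was at 0.682, 1.53 and 7.67, and with 8 or more at 3.85 (3.13 to 4.68), 3.48 (2.38 to 4.91) and 18.8 (17.3 to 20.4). Its neighbours varied less between these classes. The 81 genes within the same window in the matrices, without Birc5 and Tk1, summed in these 3 classes to 75, 79.3 and 71.3 per 10000 in lymphH, 27.5, 30.9 and 28.2 in lungH and 33.3, 31.3 and 36.4 in lungL. Over all kept cells Syngr2 was at 1.18, 1.31 and 6.69 per 10000 in lungH, lungL and lymphH, Pgs1 at 0.498, 0.567 and 2.39 and Usp36 at 0.213, 0.167 and 1.45. Of the CDK inhibitors, Cdkn1a was at 0.525, 1.30 and 1.35 per 10000. Cdkn2b had 57 counts in lungL and 0 in lungH and lymphH (upper limits 0.0167 and 0.00698 per 10000). Others differed from the bulk values: Cdkn1c had 0 counts in each library, Cdkn2a had 3 in lungH and 0 in lungL and lymphH, and Cdkn2c was highest in lymphH (0.651, 0.347 and 0.876 per 10000). Cdkn1b was at 0.167, 0.117 and 0.182 per 10000, Cdkn2d at 0.656, 0.185 and 0.505 and Trp53 at 1.08, 0.766 and 0.687.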

How the data were processed

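Bulk TPM were deposited by the authors, who aligned reads to mm10 with STAR and quantified GENCODE v21 genes with RSEM (versions are not given in the sources used here) from SMART-seq2 libraries. Single-cell counts are whole numbers deposited by the authors for unfiltered barcodes of 3 libraries (ddSeq, SureCell 3 prime kit, kallisto). Whether they count unique molecules is not given in the sources used here. TPM keeps no depth, so neither counting intervals nor a count test could be used for bulk libraries. The study's own tests used counts, so another test was needed here.

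The 15348 of 55450 genes that reached 1 TPM in 2 or more of the 14 libraries were tested with limma 3.58.1 (trend) in R 4.3.3 on log2(TPM + 1), with 7 groups in a single model, 7 residual degrees of freedom and Benjamini-Hochberg adjustment over all genes tested. Positions come from GENCODE vM21 (mm10), in which all 55450 identifiers were found. Python 3.11.15 with pandas 2.3.3, scipy 1.17.1, numpy 2.4.6 and matplotlib 3.10.9 were used for the rest, and the fit was tested on simulated data. Single-cell counts were summed per library, and cells of at least 4000 counts were thinned to 4000. Doublets were not removed.

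The 37 genes, the other lists and the tests were chosen with earlier results of these data known. Named were all 37 genes, the 3 called genes of each other list with the largest rise and fall in lung against LN and BM, and all 8 genes of the list of CDK inhibitors and p53. Genes near Birc5, Rbl2 and Lin9 were chosen after their values were seen. Replicates came from different mice according to the methods, and their numbers pair no samples across groups. Alternatives were the pseudocount, the filter, scaling, fold limit, samples in the fit, a replicate block, each library left out, and cell filters and weights.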

Additional observations from a re-analysis of the deposited data

Results flagged for a closer look

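The CD44 difference of 3 CDK inhibitors differed between lung and the other organs by the interaction term of the limma model. The log2 difference between CD44high and CD44low cells in lung, less that in LN and BM, was -3.65 for Cdkn1a (SE 0.55, adjusted p = 0.001), -3.08 for Cdkn1c (adjusted p = 1.73e-06) and -5.96 for Cdkn2b (adjusted p = 1.13e-06). In each, both lung CD44high libraries lay below both lung CD44low libraries. The 10 fibroblast markers, with sums of 4813 and 5282 TPM in lung CD44low and 223 and 106 in lung CD44high cells that were mostly Dcn, differed in the same direction, and their part in the result was not tested.

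The 37 genes and the 8 of the list of CDK inhibitors and p53 were searched over each pair of organs. In 4 genes both CD44high libraries lay on one side of both CD44low libraries in 1 organ and on the other side in another organ. The difference between organs was not tested, and the share of all genes with this pattern was not counted. Separation within a single organ was common, with both CD44high libraries above in LN for 10.2% of all genes and below in BM for 26.2%. The CD44 difference of Pttg1 in LN less that in BM was 2.41 on the log2 scale, and in LN less that in lung 3.24. It was 2.61 for Cenpa in LN less BM, -1.61 for Nusap1 in BM less lung and 1.26 for Cdkn2d in LN less lung. In LN CD44low replicate 2, which was low for all 37 mitosis genes, Pttg1 was at 15.6 and Cenpa at 13.8 TPM, beside 97.9 and 163 in replicate 1.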

How the results depend on the processing

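The 37 calls in lung against LN and BM were 37 under every alternative run. Over fits that left out 1 library each, the calls among the 37 ranged from 26 to 35 in lung CD44low and from 21 to 36 in lung CD44high against MFP, from 0 to 13 in LN CD44low, from 0 to 2 in BM CD44low and from 0 to 1 in BM CD44high against MFP, and stayed at 1 in LN CD44high. For CD44high against CD44low they ranged from 0 to 11 in LN and from 0 to 1 in lung, were 0 in BM, and ranged from 0 to 1 for the interaction. In lung against LN and BM, 5.54% of all genes were called lower in the main fit. That share was 2.68% with no filter on low TPM, 11% with a pseudocount of 0.1 and 24% with no fold limit. With only the groups compared in the fit, lung CD44high against MFP had 27 calls in place of 36. Of all genes, 7.43% were called lower there in place of 8.03%. BM CD44low had 2 calls in place of 1, beside 2.3% of all genes called higher in place of 3.99%. The second BM CD44low call was Cenpa, which was also called without either LN CD44low replicate. Birc5 lost its call in BM CD44low and BM CD44high without MFP replicate 2, and in BM CD44high without its own replicate 2. Each left-out library leaves 1 sample in its group, which is then assumed to vary like the others.

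The replicate numbers did not pair the samples, since the correlations of same-numbered deviations over 21 pairs of groups ran from -0.194 to 0.168. With the replicate block, 35 genes were called in lung CD44low and 35 in lung CD44high against MFP, and 37 in lung against LN and BM. Of all genes, 7.58%, 8.01% and 5.54% were called lower in these comparisons. There was 1 call each in LN CD44high, BM CD44low and BM CD44high, where 2.42%, 3.91% and 3.6% of all genes were called higher. LN CD44low and the CD44 comparisons had 0.

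In single cells, the level of the 37 genes per 10000 counts in lungH was 41.1 with more than 500 genes per cell, 36.7 with no mitochondrial limit, 33.7 over all barcodes and 28.1 as a mean over cells. In lymphH it was 31.5 with more than 500 genes, 29.8 over all barcodes and 27.1 as a mean over cells, and in lungL 12.5 as a mean over cells. Without Birc5, a choice made after seeing the data, it was 35.9, 11.4 and 21.6 in lungH, lungL and lymphH. The order of the 3 libraries was the same in each of these, but as a mean over cells lungH and lymphH were close, at 28.1 and 27.1. Bulk groups have 2 isolates each and single-cell groups 1 library, so the spread between mice is known only from pairs of isolates.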
